A study of Mus musculus with 768 samples.

Results

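A set of 10 genes tied to wounded epithelium, of the kind that skin, gut and airway raise after injury, was described in single cells of mouse cochlear organoids, namely Sprr1a, Sprr2b, Plaur, Ptgs2, Fosl1, Lgals3, Fscn1, Ahnak, Nrg1 and Hbegf. All 10 were found by symbol among the 52636 genes of both deposited count tables. They were selected on how they change with culture day in these same cells, so their levels by day are given as a description, and no day comparison of theirs is offered as evidence. The greater epithelial ridge (GER) is the strip of epithelium on the inner side of the cochlear hair cells, and its cells came from postnatal day 2 (P2) mice of the strain Fgfr3-CreERT2/Ai14-tdTomato/Sox2-GFP. In these mice a tamoxifen-dependent Cre is driven by Fgfr3, Ai14 is a tdTomato reporter of Cre and GFP is tied to Sox2. The cells were enriched by flow cytometry and grown as organoids for 1, 3 or 7 days. All 3 groups had the same genotype and the same DMEM/F-12 medium with N-2, B-27, EGF, FGF2, IGF1, CHIR99021 (a GSK3 inhibitor), valproic acid, 2-phospho-L-ascorbic acid, ampicillin and 616452, an inhibitor of the TGFβ receptor. No sample from before culture or from another medium was analysed here, so neither the effect of dissociation nor that of the medium can be told apart from time. Organoids were dissociated with trypsin and single cells were picked by hand, which is the last handling before each cell was lysed.

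A wounded epithelial sheet closes by spreading and crawling cells at its edge, which switch on a shared set of genes. Growth factors of the EGF family, among them heparin-binding EGF (Hbegf) and neuregulin 1 (Nrg1), are shed from cells and act on ErbB receptors. The transcription factor FRA-1 (Fosl1) is an AP-1 subunit downstream of that signal, and the urokinase receptor (Plaur) and prostaglandin synthase 2 (Ptgs2, also called COX-2) are known AP-1 targets. The small proline-rich proteins Sprr1a and Sprr2b are cross-linked under the membrane of barrier epithelia, galectin-3 (Lgals3) binds sugars on matrix and cell surfaces, fascin (Fscn1) bundles actin in protrusions, and Ahnak is a giant scaffold protein that binds annexin A2 and S100A10 at the membrane.

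The unit of comparison was the culture, with 3 cultures on day 1, 3 on day 3 and 5 on day 7, each holding 37 to 86 retained cells and between 26391412 and 72483565 reads on genes. Of 192, 255 and 321 cells in day order, 57 in all were removed for low depth, few genes or a high mitochondrial share. Levels are CPM, the reads of a gene over all cells of a culture after TMM scaling of every culture to the same total. The first deposited table holds day 1 culture 1, day 3 culture 1 and day 7 cultures 1 to 4, and the second holds the rest. The labels do not say that cultures came from separate litters, so p-values measure the spread between these cultures, which may be technical. The 7 GER and cochlear epithelium markers, all of them read on every day, summed to 11056 to 15825 CPM on day 1, 5215 to 8861 CPM on day 3 and 2893 to 4866 CPM on day 7. Their summed level thus moved with the day in the same direction as most of the members, without overlap between days, and its part in the members' levels was not tested. The 5 keratinocyte markers summed to 2.89 to 7.24 CPM over all cultures, nearly all of it Krt10 (2.40 to 6.21 CPM), while Krt5 was at 0 on every day and Krt14 at 0 on days 1 and 7. None of the 3 endothelial markers reached 1 CPM, and Pecam1 and Kdr were at 0 on every day. The 6 macrophage markers summed to 4.24 to 9.12 CPM on day 1, 1.96 to 3.38 on day 3 and 0.372 to 5.77 on day 7. The 5 mesenchyme markers summed to 5.34 to 20.7 CPM on day 1, 0.424 to 30.8 on day 3 and 0.929 to 2.47 on day 7. The values of 20.7 and 30.8 CPM come from 1 culture each, and day 7 lay below day 1 without overlap. The 4 Schwann cell and glia markers summed to 53.7 to 74.4 CPM on day 1, 46.4 to 62.1 on day 3 and 77.3 to 88.03 on day 7. Most of it was Sox10 (30.9 to 71.7 CPM), which otic epithelium also expresses. The part of these lists in the members' levels was not tested. The 5 hair cell markers summed to 0 to 20.5 CPM on day 1, 10.4 to 89.5 CPM on day 3 and 0 to 4.11 CPM on day 7.

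Promoters were searched on both strands for motifs of factors known at wound genes, AP-1 above all. RefSeq (build GRCm38.p6) gave a promoter of 250 bases before to 50 bases after the start for 7 of the 10 genes. The AP-1 motif TGANTCA, which reads the same on both strands apart from its middle base, was present in 3 of these 7 (Sprr1a, Sprr2b and Plaur) and in 7.81% of 32851 promoters. Sprr1a held it at 2 places, as did 0.460% of all promoters. The cyclic AMP element TGACGTCA was present in Fscn1 alone of the 7 and in 1.79% of all promoters. Its first letters alone, TGACG, which overlap the full element, were in Fscn1 and Ptgs2 and in 20.8% of all promoters. The TEAD motif GGAATG was in Ahnak and in 14.7% of all promoters. The box TATAAA was present in Sprr1a, Sprr2b and Fscn1, and in 13.6% of all promoters. Neither AP-1 nor the cyclic AMP element was found in these windows of Ptgs2, Lgals3 or Ahnak. Below are the 4 windows with an AP-1 or cyclic AMP match before the start, 5′ to 3′ on the gene's strand and ending where either RefSeq or GENCODE M21 begins the transcript. Capitals mark the matches.
Sprr1a, chr3:92485896-92486131, minus strand: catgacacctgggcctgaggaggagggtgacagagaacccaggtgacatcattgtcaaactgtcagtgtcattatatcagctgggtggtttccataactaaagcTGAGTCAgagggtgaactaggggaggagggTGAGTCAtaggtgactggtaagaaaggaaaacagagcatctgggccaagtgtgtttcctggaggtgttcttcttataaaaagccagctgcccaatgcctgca
Sprr2b, chr3:92316455-92316619, plus strand: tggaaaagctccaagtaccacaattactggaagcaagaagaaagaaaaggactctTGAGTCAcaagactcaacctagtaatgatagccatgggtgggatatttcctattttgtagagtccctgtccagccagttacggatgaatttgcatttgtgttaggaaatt
Plaur, chr7:24462233-24462482, plus strand: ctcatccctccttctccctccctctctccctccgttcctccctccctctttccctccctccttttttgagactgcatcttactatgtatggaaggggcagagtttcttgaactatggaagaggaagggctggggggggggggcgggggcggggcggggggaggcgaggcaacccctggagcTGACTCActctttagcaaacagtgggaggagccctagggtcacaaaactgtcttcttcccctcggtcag
Fscn1, chr5:142960105-142960342, plus strand: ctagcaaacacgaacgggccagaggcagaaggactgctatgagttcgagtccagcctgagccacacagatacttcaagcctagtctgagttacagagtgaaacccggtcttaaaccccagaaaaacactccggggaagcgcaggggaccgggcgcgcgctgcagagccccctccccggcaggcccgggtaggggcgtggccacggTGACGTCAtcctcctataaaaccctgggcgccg
Counted from the RefSeq start, the first base of the AP-1 match lay 146 and 116 bases upstream in Sprr1a, 195 upstream in Sprr2b and 69 upstream in Plaur, and the cyclic AMP element of Fscn1 lay 45 upstream. A match is only a run of letters, and binding was not measured here.

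The 2 Sprr genes were the most abundant members per length on days 1 and 3. Sprr1a (ENSMUSG00000050359.7, chr3:92483952-92485895 on the minus strand, protein coding) stood at 140, 99.7 and 76.6 CPM in the 3 day 1 cultures. It was at 37.2, 42.7 and 47.3 CPM on day 3. On day 7 it was at 0, 0.0330, 1.01, 0.427 and 0 CPM. Every day 7 culture was thus below every earlier one, and the day 3 cultures were all below the day 1 cultures. The means over 3, 3 and 5 cultures were 106 ± 32.2 (SD), 42.4 ± 5.08 and 0.294 ± 0.440 CPM in day order. The fitted log2 fold change from day 1 was -8.37 (SE 0.954) to day 7 and -1.32 (SE 0.862) to day 3. In both day 7 cultures without a read, 0 of 39 and 0 of 75 cells allow a share of cells of up to 7.69% and 4%, for counting error only.

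Sprr2b (ENSMUSG00000050092.3, chr3:92316620-92318085, plus strand) did not follow its neighbour on day 3. It was at 116, 209 and 134 CPM on day 1 and at 227, 170 and 147 CPM on day 3. On day 7 it was at 3.44, 0.396, 74.5, 0.986 and 51.3 CPM, so that cultures 3 and 5 kept a level far above the other 3. The means were 153 ± 49.4, 181 ± 41.1 and 26.1 ± 34.6 CPM on days 1, 3 and 7, with no overlap between day 7 and either earlier day. The fitted log2 fold change for day 7 against day 1 was -2.55 (SE 1.13). Of the 31-base stretches in its transcripts, 31.9% also occur in another Sprr gene, mostly Sprr2a1 (28.7%), while Sprr1a shares none. Reads of Sprr2b and its copies may therefore be split by the counting, and its level is uncertain to that extent.

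Hbegf, a ligand of the EGF receptor and Erbb4, was the member with the smallest fitted change from either earlier day to day 7. It was at 38.5, 36.6 and 31.04 CPM on day 1, at 19.2, 19.5 and 17.0 on day 3 and at 14.3, 15.3, 9.85, 19.1 and 13.0 on day 7. Levels on day 1 stood above all later cultures, and the ranges of days 3 and 7 overlapped, 2 of the 3 day 3 cultures lying just above the highest day 7 culture. From day 1 the log2 fold change was -0.93 (SE 0.278) to day 3 and -1.303 (SE 0.241) to day 7, and from day 3 to day 7 it was -0.37 (SE 0.244). Nrg1, a ligand of Erbb3 and Erbb4, had no lower level on day 3. Nrg1 (ENSMUSG00000062991.7, chr8:31814551-32884029, minus strand) was at 7.00, 21.9 and 10.7 CPM on day 1 and at 19.4, 16.9 and 11.6 on day 3. On day 7 it was at 0, 0.528, 4.55, 0.854 and 0.641 CPM, all below the earlier cultures. Its log2 fold change was 0.28 (SE 1.06) from day 1 to day 3 and -3.31 (SE 0.962) from day 1 to day 7. The predicted gene Gm26578 overlaps exons of Nrg1 and Ccdc85b overlaps those of Fosl1, each on the opposite strand. The counting is not stated to use strand, so reads in these stretches cannot be assigned to one gene.

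Fosl1, the AP-1 subunit, was low throughout and was at 12.8, 9.67 and 0 CPM on day 1. It was at 7.03, 3.19 and 2.97 CPM on day 3 and at 1.52, 1.42, 0.777, 1.02 and 1.40 CPM on day 7. Its day 7 range lay below all day 3 cultures but above day 1 culture 3, where none of 43 cells had a read (a share of up to 6.98%, counting error only). Plaur (ENSMUSG00000046223.10, chr7:24462484-24475968, plus strand) was at 18.5, 26.6 and 8.40 CPM on day 1 and at 9.37, 10.0 and 3.22 on day 3. On day 7 it was at 1.15, 1.39, 1.84, 0.957 and 0.654 CPM, below all earlier cultures, with a log2 fold change from day 1 of -3.90 (SE 0.519). Ptgs2 (ENSMUSG00000032487.8, chr1:150100031-150108227, plus strand) was at 58.1, 12.9 and 9.84 CPM on day 1 and at 68.8, 7.43 and 4.72 on day 3. On day 7 it was at 0, 0, 0.343, 2.36 and 0.494 CPM. The 2 high values of Ptgs2 are culture 1 of day 1 and of day 3, which are the only cultures of those days in the first table. Within that table Ptgs2 was at 58.1 CPM on day 1 and at most 2.36 on day 7, and within the second at 9.84 or more against 0.494. Its log2 fold change was 0.00 (SE 1.31) from day 1 to day 3 and -5.32 (SE 1.28) from day 1 to day 7.

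Among the structural members, Lgals3 was at 76.9, 43.2 and 4.24 CPM on day 1, at 74.6, 90.6 and 24.2 on day 3 and at 0.0310, 0.297, 0.506, 0.309 and 20.7 on day 7. Day 7 culture 5 stood apart from its 4 companions and above day 1 culture 3, so the 2 days overlap. Fscn1 (ENSMUSG00000029581.14, chr5:142960343-142973185, plus strand) was at 9.56, 11.3 and 17.6 CPM on day 1, at 11.2, 1.21 and 17.3 on day 3 and at 0.341, 0.924, 1.07, 4.11 and 2.34 on day 7. One day 3 culture had thus already a day 7 level of fascin. Ahnak was at 57.3, 29.0 and 5.75 CPM on day 1, at 24.4, 16.9 and 12.0 on day 3 and at 3.90, 2.64, 0.452, 0.824 and 1.19 on day 7. Day 1 culture 3 was the lowest day 1 culture for Sprr1a, Plaur, Ptgs2, Fosl1, Lgals3, Ahnak and Hbegf and the highest for Fscn1. The log2 fold changes from day 1 to day 7 were -3.22 (SE 1.40) for Lgals3, -2.85 (SE 0.793) for Fscn1 and -4.11 (SE 0.735) for Ahnak.

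**Figure D1:**
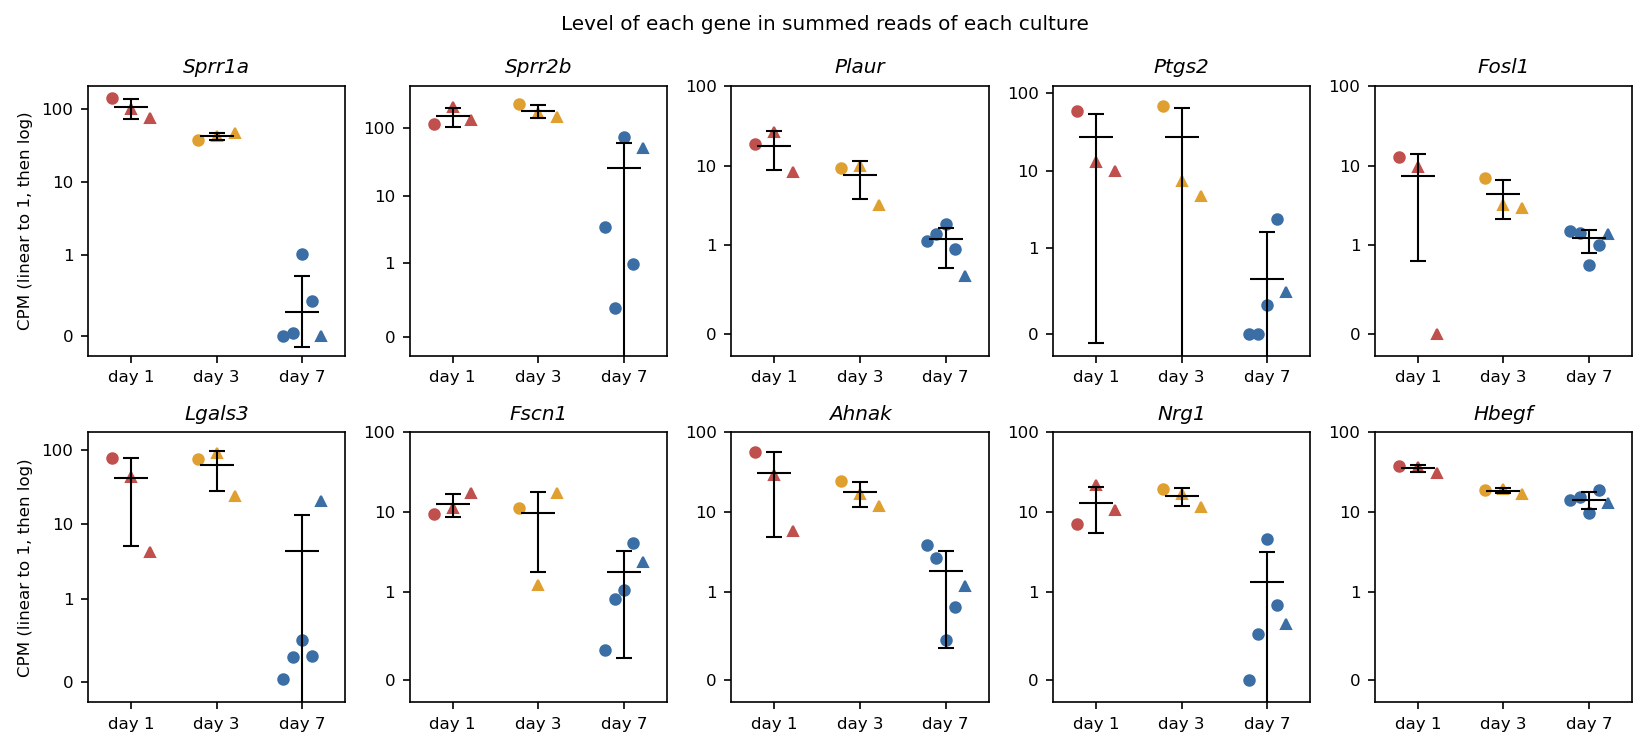
CPM of each gene (y axis, linear up to 1 and logarithmic above) in each culture by culture day (x axis). Circles are cultures of the first deposited table and triangles those of the second, and black lines are means with SD. Day 7 cultures lie below all day 1 cultures in every panel but those of Fosl1 and Lgals3.

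In the count of members, 6 of 10 were called lower on day 7 than on day 1 by edgeR's quasi-likelihood test with Benjamini-Hochberg adjustment over 17466 genes (Sprr1a, Plaur, Ptgs2, Fscn1, Ahnak and Hbegf), where 3.56% of all genes were called lower. With any 1 culture left out Sprr1a, Plaur, Ahnak and Hbegf were still called. Ptgs2 lost its call without day 1 culture 1 or 2 or day 7 culture 3, and Fscn1 lost it without any day 1 culture, day 3 culture 1 or 3 or day 7 culture 1, 2, 3 or 5. The other 4 had adjusted p of 0.0563 (Nrg1), 0.153 (Fosl1), 0.183 (Lgals3) and 0.192 (Sprr2b) in the same edgeR test. Lgals3 was called without day 7 culture 5, Fosl1 without day 1 culture 3 and Nrg1 without day 7 culture 1 or 3. Cultures did not overlap for 8 of the 10, as for 9.06% of all genes in that direction. For day 7 against day 3, Sprr1a and Plaur were called lower (0.784% of all genes), and 8 members did not overlap (5.14% of all genes), the exceptions being Fscn1 and Hbegf. For day 3 against day 1 no member was called (0.0115% of all genes in either direction), 2 members had an unadjusted p under 0.05, and DESeq2 called 1. Sprr1a and Hbegf were the members whose day 3 cultures all lay below day 1 (8.11% of all genes). The genes were chosen by this contrast, so these counts carry no weight as a test. The members' median log2 fold change was -3.27 from day 1 to day 7, -0.57 from day 1 to day 3 and -3.06 from day 3 to day 7, beside medians over all tested genes of 0.00, 0.02 and 0.01. Within the first table all 10 members were lower on day 7 than on day 1 without overlap, and within the second 8 were, with a single day 1 or day 7 culture on one side in each, as did 29.5% and 36.1% of all genes in that direction.

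Compared per kilobase of exon, the order of levels on day 1 was led by Sprr2b (196 ± 63.0 CPM per kb) and Sprr1a (131 ± 39.9), followed by Lgals3 (22.3 ± 19.6), Hbegf (7.32 ± 0.801), Plaur (6.82 ± 3.49), Ptgs2 (5.88 ± 5.90), Fscn1 (4.25 ± 1.40), Fosl1 (3.68 ± 3.28), Ahnak (1.54 ± 1.296) and Nrg1 (1.27 ± 0.747). Neighbours in this order overlapped between cultures except at the step from Sprr1a to Lgals3. On day 3 the one step without overlap was that from Sprr2b (231 ± 52.4) to Sprr1a (52.6 ± 6.30). On day 7 Sprr2b (33.3 ± 44.1), Hbegf (2.97 ± 0.700) and Lgals3 (2.35 ± 4.92) led and Sprr1a had gone from the second to the seventh place (0.365 ± 0.546), and every pair of neighbours overlapped. In culture sums, fewer cells with a transcript and less transcript per cell cannot be told apart, and so single cells were examined next.

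After every cell was thinned to 200000 reads, each member was read in a minority of cells on each day in the mean over cultures. In day 1 culture 1 alone, Ahnak (57.7%) and Lgals3 (51.9%) were read in most cells. Ahnak was present in 39.1% ± 19.7 of day 1 cells (SD, n = 3 cultures), 22.9% ± 5.38 of day 3 cells (n = 3) and 6.65% ± 3.81 of day 7 cells (n = 5). Sprr1a went from 22.0% ± 10.4 to 14.6% ± 3.68 and 1.92% ± 1.89 over the same days. Ptgs2 went from 23.8% ± 6.31 to 17.4% ± 10.3 and 0.779% ± 1.15, which on day 7 is 3 of 298 cells. Plaur went from 25.4% ± 12.7 to 11.4% ± 2.07 and 3.48% ± 1.19, Lgals3 from 34.9% ± 21.7 to 32.6% ± 4.71 and 5.47% ± 3.17, and Sprr2b from 35.4% ± 8.22 to 33.7% ± 13.2 and 12.2% ± 6.25. Nrg1 had its largest share on day 3 (26.2% ± 2.59, against 18.6% ± 5.27 on day 1 and 6.31% ± 5.66 on day 7). Fscn1 was present in 20.2% ± 9.21, 15.1% ± 8.39 and 6.07% ± 4.14 of cells and Fosl1 in 8.27% ± 7.76, 9.58% ± 4.47 and 4.52% ± 2.61. Hbegf had the smallest change relative to its day 1 share, at 36.0% ± 6.77, 35.3% ± 4.58 and 29.5% ± 7.07. Its cells with a read held a median of 9, 7 and 7 thinned reads on days 1, 3 and 7, and the largest value in a cell was 245, 61 and 37 reads.

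**Figure D2:**
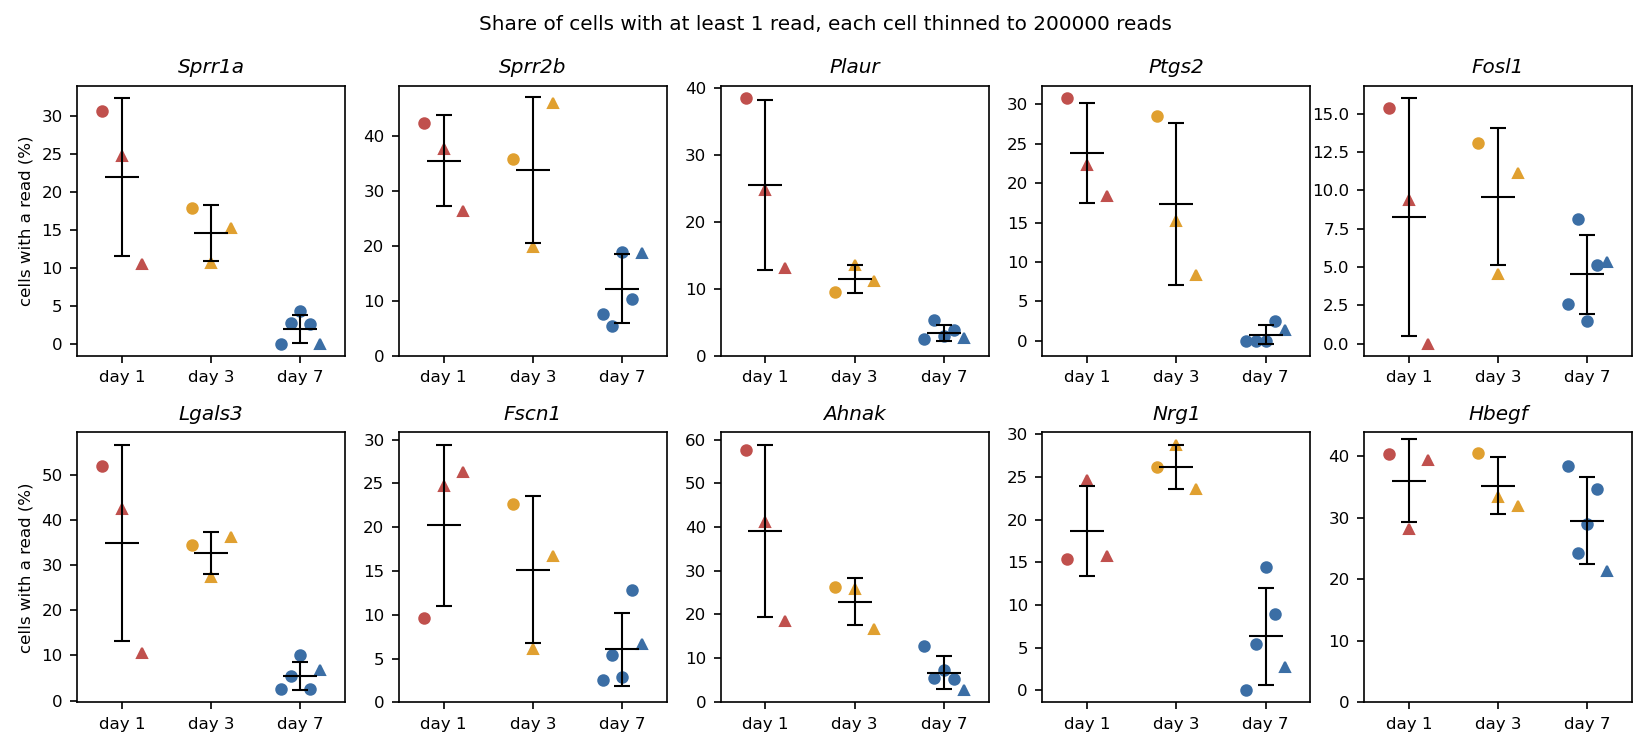
Percent of cells with at least 1 read of each gene (y axis, linear) in each culture by culture day (x axis), after thinning every cell to 200000 reads. Symbols are as in the plot of CPM and black lines are means with SD. Shares on day 7 are near 0 for Ptgs2 and Sprr1a and between 21.3% and 38.5% for Hbegf.

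Reads were unevenly spread among the cells that had them. One cell held between 39.1% and 80.03% of the Sprr1a reads of a day 1 culture, and between 18.4% and 27.6% of its Ahnak reads. On day 7 the single top cell held a median of 90.2% of a culture's Plaur reads and 88.4% of its Fosl1 reads, but 17.3% of its Hbegf reads. With the top cell of every culture left out, mean levels on days 1 and 7 were 52.2 and 0.171 CPM for Sprr1a, 13.8 and 0.266 CPM for Plaur, 15.4 and 0.135 CPM for Ptgs2 and 25.2 and 0.766 CPM for Ahnak. The ratio of day 1 to day 7 means then moved from 14.9 to 51.7 for Plaur, from 42.2 to 115 for Ptgs2, from 17.0 to 32.9 for Ahnak, from 6.10 to 12.4 for Fosl1 and from 5.87 to 9.27 for Sprr2b. Day 7 values of these 5 genes rest on 1 or a few cells per culture. For the other 5 genes that ratio moved by less than 1.5 times, for Hbegf from 2.47 to 2.16. A steady ratio does not mean many cells. Without thinning, Sprr1a had 86 reads in 13 of 301 day 7 cells and Nrg1 374 reads in 29. Lgals3 had 1552 reads in 6 of 75 cells of day 7 culture 5. Fscn1 was read in 30 and Hbegf in 106 of the 301 cells.

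A day 1 cell held reads of 2.64 ± 0.781 of the 10 genes on average (n = 3 cultures), a day 3 cell of 2.19 ± 0.350 (n = 3) and a day 7 cell of 0.769 ± 0.119 (n = 5). At least 4 members were read in 27.9% ± 17.8 of day 1 cells, 24.2% ± 7.18 of day 3 cells and 1.59% ± 1.68 of day 7 cells. No member was read in 12.5% ± 14.3, 28.2% ± 4.51 and 47.8% ± 5.98 of cells. Culture values of days 1 and 3 overlapped in these 3 measures, and every day 7 culture had fewer members per cell than every earlier one. Counted over cultures, 1 day 1 cell held all 10 members and 1 held 9, 2 day 3 cells held 9, and the fullest day 7 cell held 6. Ptgs2, Plaur and Fosl1 were all present in 4 of 175 day 1 cells, 4 of 222 day 3 cells and 0 of 298 day 7 cells.

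**Figure D3:**
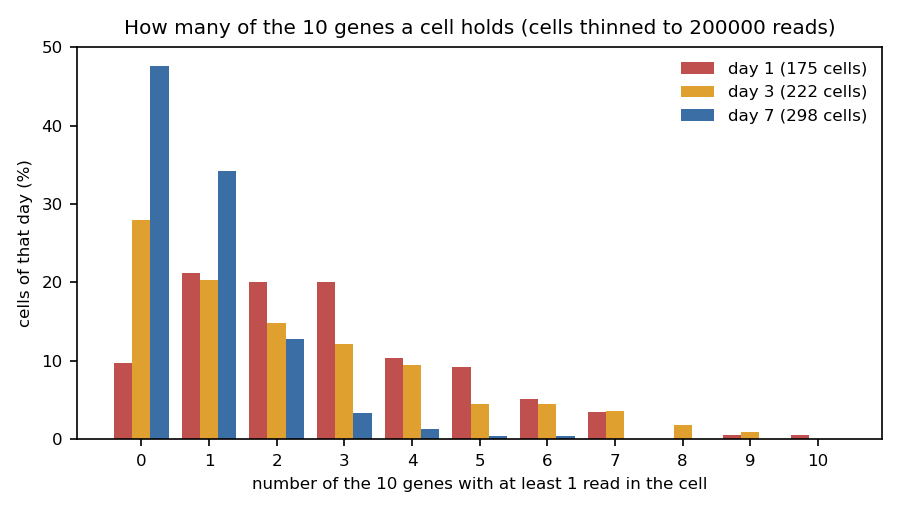
Percent of the cells of each day (y axis, from 0) by the number of the 10 genes with a read (x axis), cultures of a day pooled and cells thinned to 200000 reads. On day 7, 47.7% of cells hold none and 34.2% hold 1, and on day 1 the bars extend to 10.

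Whether the members were read in the same cells was described within cultures of days 1 and 3. Spearman's rho was taken across the cells of a culture and averaged over up to 6 cultures. It was above 0 for 44 of 45 pairs, with a median of 0.20, and above 0 in every culture for 19 pairs. Over all pairs of the 4247 other genes read in 9.57% to 35.3% of these cells, the range of the members, 64.1% of pairs were above 0, the median was 0.021 and 3.32% were above 0 in every culture, beside 97.8% and 42.2% of the members' pairs. The members were chosen with earlier results of these same cells known, so these shares are a description and no independent evidence of a shared state. The highest pairs were Lgals3 with Ahnak (mean rho 0.37, from 0.25 to 0.60 in 6 cultures), Plaur with Fosl1 (0.34, 5 cultures), Fscn1 with Ahnak (0.30) and Plaur with Nrg1 (0.30). Lgals3 and Ahnak were both read in 77 cells, out of 140 with Lgals3 and 123 with Ahnak. Plaur had the highest mean rho with the other 9 members (0.24) and Sprr2b the lowest (0.10), and the one pair below 0 was Sprr2b with Fscn1 (-0.12). Points are single cells that share a library depth after thinning but not the number of genes detected. The number of members in a cell had a rho with its number of detected genes between -0.04 and 0.39 in the 6 cultures, and with its mitochondrial share between -0.30 and -0.02. The part of these in the pairs was not tested.

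**Figure D4:**
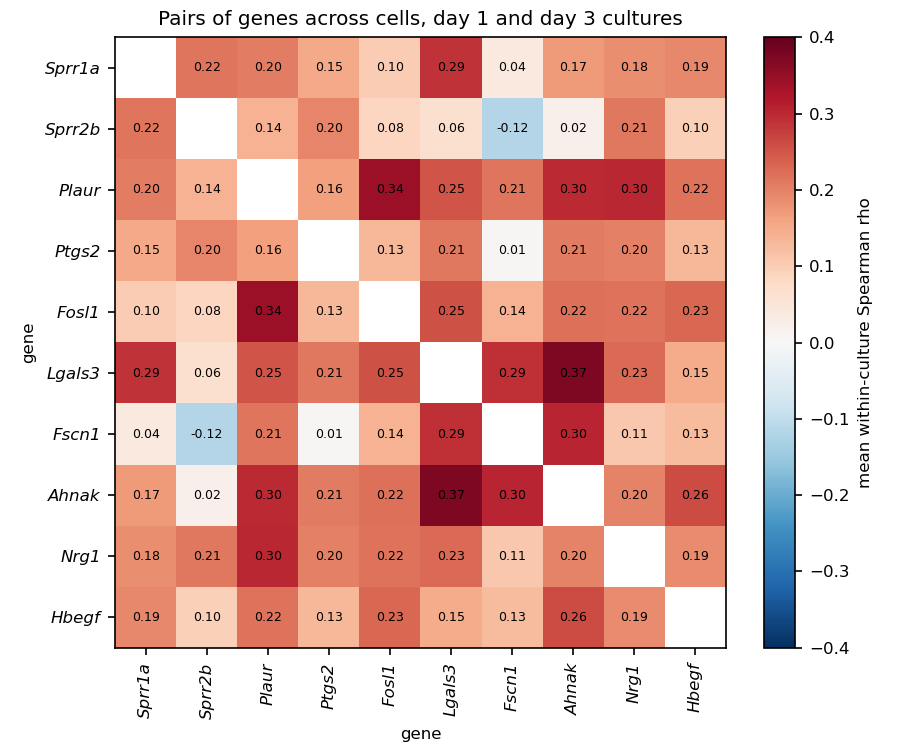
Mean within-culture Spearman rho (colour and printed value) for each pair of the 10 genes on both axes, over the day 1 and day 3 cultures. Lgals3, Ahnak and Plaur have the highest values with other genes, and the row of Sprr2b is the palest.

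For each member the other gene with the most similar distribution over day 1 and day 3 cells was taken from 9845 genes read in at least 20% of day 1 cells. Lgals3 was most like Anxa2 (mean rho 0.43 over 6 cultures), the annexin that binds Ahnak with S100a10. Ahnak was most like Cldn4 (0.43), a tight junction claudin. Fscn1 was most like Car13, a carbonic anhydrase (0.37), Nrg1 most like Anxa3 (0.36), Ptgs2 most like the glycolytic enzyme Pfkp (0.36) and Plaur most like Gprc5a (0.35). Fosl1 was most like Myc (0.34 over 5 cultures), Hbegf most like Tnfrsf12a, the receptor of TWEAK (0.32), Sprr1a most like the simple epithelial keratin Krt19 (0.32) and Sprr2b most like B2m of MHC class I (0.32). These values are descriptions of sparse counts, with no test.

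Markers of other cell types were looked up in the cells with a member. At least 2 of the 7 GER and cochlear epithelium markers were read in all 41 day 1 cells with Sprr1a and in all 134 without it, so this list does not separate them. At least 2 macrophage markers were read in 2 of these 41 cells and in 0 of the 134 cells without Sprr1a. On day 3, at least 2 keratinocyte markers were read in 2 of 76 cells with Sprr2b and in 0 of 146 without it. For Sprr2b these were 0 of 64 and 1 of 111 cells on day 1, and 0 of 40 and 1 of 258 on day 7. Of the 67 day 1 cells with Lgals3, a gene also high in macrophages, 1 had 2 macrophage markers, as had 1 of the 108 cells without it. On day 7 these were 0 of 17 cells with Lgals3 and 6 of 281 without it. No day 1 cell with Fscn1 had 2 macrophage markers, and 1 of its 36 cells had 2 mesenchyme markers, as had 0 of the 139 without it. On day 3, 2 of 35 cells with Fscn1 and 0 of 187 without it had 2 mesenchyme markers. At least 2 hair cell markers were read in 4 of these 35 cells and in 5 of those 187. At least 2 Schwann cell and glia markers were read in 30.6% to 41.5% of the day 1 cells with a given member and in 36.9% to 43.7% of those without it. The part of these cells in the members' levels was not tested.

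Cycling state gave a contrast that does not use the day. A cell was called cycling where, after thinning, 3 or more of these 6 mitosis and proliferation genes had a read: Tpx2, Ccnb2, Birc5, Cdk1, Top2a or Mki67. The share of cycling cells ran from 15.3% to 23.7% in day 1 cultures, from 52.8% to 63.6% in day 3 cultures and from 25.3% to 87.0% in day 7 cultures. On day 3, 9 of 10 members were lower in cycling than in non-cycling cells of the same culture in 3 of 3 cultures, where 20.4% of the 15842 genes tested were. None passed edgeR's test within cultures on day 3 (2.12% of all genes in either direction), 1 had an unadjusted p under 0.05, and DESeq2 called 0. Sprr1a was at 11.8 ± 13.8 CPM in cycling and 82.8 ± 26.6 CPM in non-cycling cells (n = 3), which gave -3.59 on the log2 scale (SE 1.28, adjusted p 0.289 by edgeR). Fscn1 was at 2.70 ± 2.73 against 18.9 ± 15.2 CPM, and Hbegf at 12.2 ± 3.84 against 26.7 ± 2.52 CPM. Sprr2b was the exception, being higher in cycling cells of culture 2 (197 against 137 CPM) and lower in cultures 1 (69.5 against 513 CPM) and 3 (19.2 against 279 CPM).

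The day 3 directions were looked at again without the cell with the most reads of a gene in each culture. That cell was non-cycling in 3 of 3 day 3 cultures for 6 members. For these 6, leaving it out takes reads from non-cycling cells alone. A direction lost this way does not show that it rested on single cells. Without that cell, 6 of the 10 members were lower in cycling cells of all 3 day 3 cultures (Sprr2b, Plaur, Lgals3, Fscn1, Nrg1 and Hbegf). Fscn1 was then at 2.70 against 13.5 CPM and Hbegf at 11.2 against 21.1 CPM. Non-cycling cells had fewer detected genes at the same thinned depth in 2 of the 3 day 3 cultures (medians of 6235 against 6595, 5552.5 against 6054 and 6362 against 6304), and the part of this in the result was not tested.

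On day 7, Sprr2b was called lower in cycling cells (-4.32 on the log2 scale, SE 1.08, adjusted p 0.0462 by edgeR), among 2.11% of all genes called lower. It was lower in cycling cells of 5 of 5 cultures (7.72% of all genes were), at 0.782 against 7.47, 0.133 against 0.648, 1.62 against 669, 0.306 against 2.94 and 7.89 against 67.1 CPM. Culture 3, with the largest value, had 9 non-cycling cells. Without the top cell of each culture it was lower in 4 of 5, and the call was lost with cells thinned, with at least 4 cycling genes required and without day 7 culture 1, 2, 4 or 5 or day 3 culture 1 or 3 (adjusted p from 0.000562 to 0.0941 over 15 alternatives). Without day 7 culture 3 the call held. The other members were not called, among them Ptgs2 (-3.85, SE 1.13, adjusted p 0.104) and Hbegf (0.19, SE 0.633, adjusted p 0.929). The effect of cycling did not pass the test of a difference between days 7 and 3 for any member (edgeR adjusted p of 1, the smallest unadjusted p being 0.0734 for Sprr1a).

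On day 1, with 9 to 13 cycling cells a culture and no test made, Sprr2b was higher in cycling cells of 3 of 3 cultures (278 against 84.7, 376 against 190 and 213 against 71.9 CPM). Sprr1a, Plaur, Ptgs2, Fscn1, Ahnak and Hbegf were lower in 3 of 3 (21.1% of all genes). The day 1 directions were looked at again without the cell with the most reads of a gene in each culture. With 15.3% to 23.7% of cells cycling, the cell with the most reads was non-cycling in every day 1 culture for 8 members. Fosl1 is counted among these 8 but had no read in culture 3. For these 8, leaving that cell out takes reads from non-cycling cells alone, while the top cycling cell stays in. A direction lost this way does not show that it rested on single cells. Without the cell with the most reads, Ahnak and Hbegf were the 2 members still lower in all 3 cultures. Sprr1a was then higher in cycling cells of 2 of 3 cultures, with means of 70.0 CPM in cycling and 51.4 CPM in non-cycling cells. Sprr2b was higher in 2 of 3, and its mean in cycling cells went from 289 to 177 CPM, against 101 CPM in non-cycling cells.

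In non-cycling cells alone, 4 members were lower on day 7 than in any day 1 culture (Sprr1a, Ptgs2, Fscn1 and Hbegf), as were 6.93% of all genes. With 1 culture left out the count ran from 4 to 6, beside 8.53% to 10.7% of all genes. It was 9 (all but Sprr2b) without day 1 culture 3, beside 10.2% of all genes. Sprr2b was at 84.7, 190 and 71.9 CPM in non-cycling cells of day 1 and at 7.47, 0.648, 669, 2.94 and 67.1 CPM in those of day 7. The day 7 mean of 149 ± 292 CPM (n = 5), above the 115 ± 64.7 of day 1 (n = 3), comes from culture 3 with its 9 cells. Without that culture the mean was 19.5 CPM, and all other day 7 cultures lay below day 1.

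**Figure D5:**
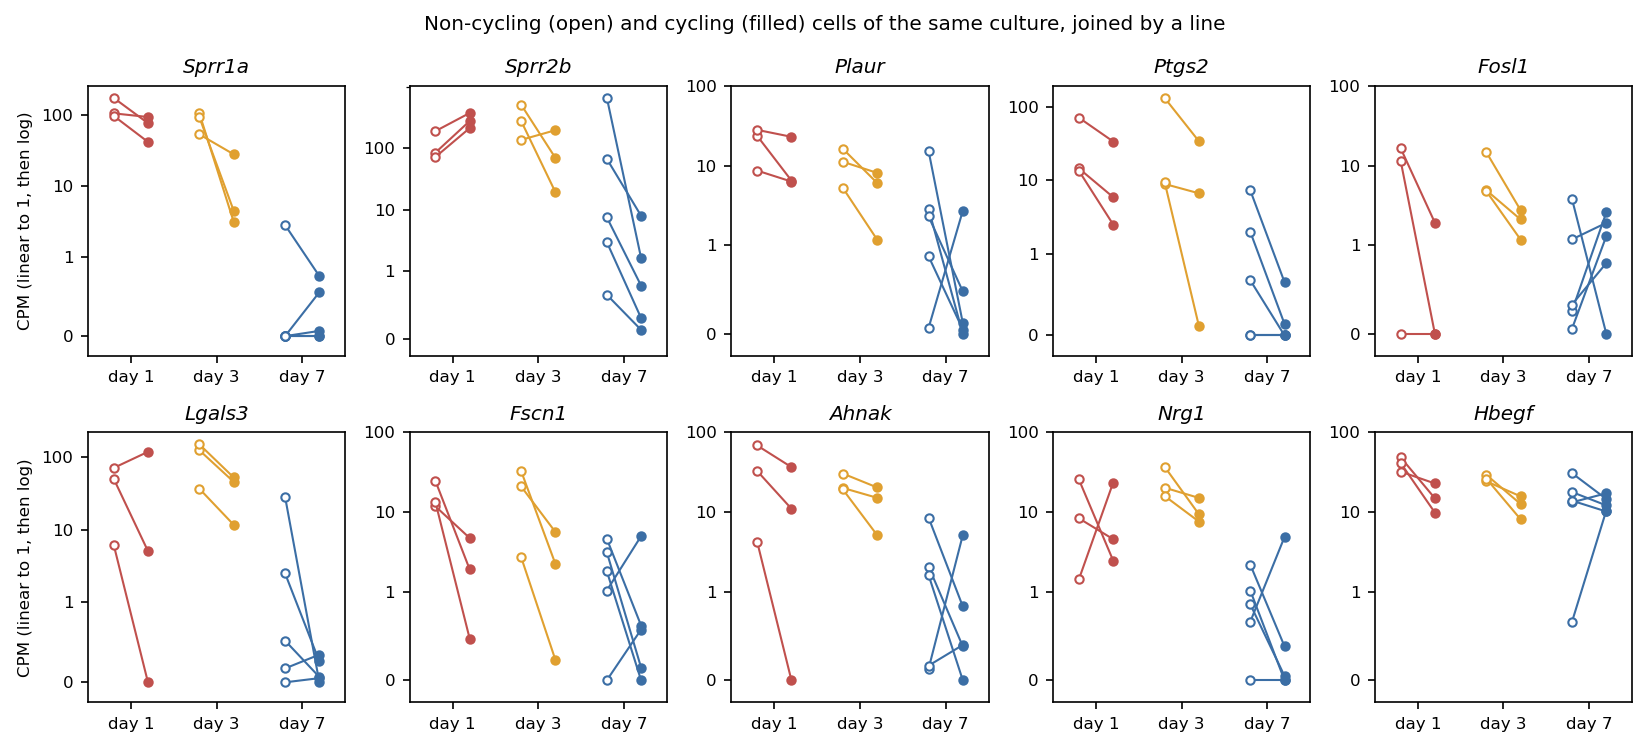
CPM of each gene (y axis, linear up to 1 and logarithmic above) in non-cycling (open circles) and cycling cells (filled circles) of the same culture, joined by a line, by culture day (x axis). Lines fall in all 3 day 3 cultures for 9 genes, and for Sprr2b they rise on day 1 and fall on day 7.

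Other genes of the members' pathways were taken from 9 lists. Of the 132 listed genes, 98 were tested, and 19 were called lower and 7 higher on day 7 than on day 1, which is 26.5% of those tested beside 7.11% of all genes in either direction. Against day 3, 6 were lower and 3 higher (0.968% of all genes in either direction), and edgeR called none between days 3 and 1 (12 at an unadjusted p under 0.05, and 2 called by DESeq2). The lists were drawn up with earlier results of these cells known and are no independent evidence.

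Of the 11 tested genes of the AHNAK and annexin list, 8 were called lower on day 7 than on day 1 and none higher, with a median log2 fold change of -1.996. The count was 5 to 8 with a culture left out and 1 in either table alone. The calcium-binding protein S100a6 was at 315 ± 69.6 CPM on day 1 and 16.9 ± 7.85 on day 7 (log2 fold change -4.22, SE 0.337), and at 109 to 197 CPM in between. S100a10, Anxa2, Anxa3, Anxa5, S100a11 and the ferlin Myof were also called. Caveolin 1 (Cav1) was at 1.51 ± 0.595 CPM on day 1 and at 2.21 to 4.71 CPM on day 3, above every day 1 culture. It had 1 read on day 7 against 179 on day 1, a ratio of 376 with a counting interval from 66.6 to 14936. Among galectins Lgals1 was at 939 ± 202 CPM on day 1 and 71.3 ± 20.1 on day 7 (-3.72 on the log2 scale, SE 0.249), with day 3 in between at 312 to 471 CPM. It was the 1 called of 5 (median 0.03, from -0.44 to 0.15 with a culture left out), and Lgals3bp had an adjusted p of 0.552 by edgeR.

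In the AP-1 family, to which Fosl1 belongs, 4 of 12 other tested genes were called higher on day 7 than on day 1 and none lower (median log2 fold change 0.56), also with the RLE scaling and with DESeq2 (5 higher), though none was called in the first table alone. The median rests on single cultures, being -0.01 without day 7 culture 1 and 0.94 without day 1 culture 2, and 0.02 with cells thinned, while 3 to 5 genes were called with a culture left out. Fosb was at 3.36 ± 0.792 CPM on day 1 and 35.4 ± 14.3 on day 7 (log2 fold change 3.39, SE 0.461), with 3.66 to 10.1 CPM on day 3. Jun was at 179 ± 65.3 and 558 ± 112 CPM on the same days, with a log2 fold change of 1.64 (SE 0.276), and Fos and Junb were the other called genes. Fosl1 stood at 7.48 ± 6.67 CPM on day 1 and 1.23 ± 0.316 on day 7.

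In the plasminogen list (2 of 8 called, median log2 fold change -0.08) Plat, the tissue plasminogen activator, rose from 182 ± 44.0 to 449 ± 143 CPM. With a culture left out 0 to 2 of the list were called, and its median ran from -0.28 to 0.22. Of 15 prostaglandin genes 3 were called (median -0.77 on the log2 scale). The terminal synthase Ptges fell from 23.1 ± 5.35 to 5.23 ± 2.47 CPM and the degrading enzyme Hpgd rose from 6.72 ± 2.61 to 25.03 ± 9.23 CPM. Ptgis was also called, with 85 reads on day 1 and 0 on day 7, at least 59.5-fold lower against a floor of 3 reads over the group. Of 15 ErbB genes 2 were called, both lower (median -0.56): the sheddase Adam10 (235 ± 70.4 to 108 ± 15.5 CPM) and the receptor Erbb4, from 140 reads to 1 (ratio 294, counting interval from 51.9 to 11699), with day 1 cultures at 0 to 3.37 CPM. The Sprr and cornified envelope list had 8 tested genes, a median of -2.01 and none called by edgeR or DESeq2, also none at an unadjusted p under 0.05. Its 2 with the smallest adjusted p were Sprr2a1 (59 reads on day 1, 7 on day 7, adjusted p 0.236) and Sprr2a2 (1035 and 209 reads, adjusted p 0.266), which share stretches with Sprr2b.

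Of the wound-edge keratins and matrix genes, 3 of 14 were called lower and 1 higher on day 7 (median log2 fold change -1.16). Cldn4 was at 383 ± 141 CPM on day 1 and 134 ± 51.4 on day 7, Tnc was also lower, and Il33 was higher. Of 10 actin bundling genes 2 were called lower, Actn1 (11.2 ± 3.60 to 4.57 ± 1.08 CPM) and Vasp (28.7 ± 3.56 to 15.6 ± 2.75 CPM), and with a culture left out 0 to 2 of the list were called.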

How the data were processed

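The 2 deposited tables hold the authors' expected counts, which are RSEM estimates without normalisation, for 384 cells each. STAR 2.5.3a, RSEM 1.3.0 and the build mm10/GRCm38 are named in the submitters' processing notes. Of values above 0, 10.6% were not whole, and counts were rounded. The 92 spike-in and 4 transgene rows were left out. Cells with under 50000 reads, under 1500 genes or over 20% mitochondrial reads were removed, and the rest summed per culture. Days were tested in 1 edgeR 4.0.16 fit over 11 cultures (TMM, filterByExpr, quasi-likelihood, day as the only term), and cycling cells against non-cycling cells within cultures holding at least 8 of each, with Benjamini-Hochberg adjustment over all genes tested (threshold 0.05). DESeq2 1.42.0 was an alternative. Scripts were tested on simulated data. Per-cell measures used cells thinned to 200000 reads. Smart-seq reads carry no molecular identifiers. Members and lists were chosen with earlier results of these data known. Named were all members, the 2 genes of each list with the smallest adjusted p for day 7 against day 1, and the gene most like each member at a mean rho of at least 0.3. Some genes that this rule names are not reported here. Other list genes are named beside their list's count after their values were seen. Positions are from GENCODE M21 for identifiers of the same version.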

Additional observations from a re-analysis of the deposited data

Results flagged for a closer look

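The day 7 levels of 3 genes stood far from the other 4 cultures of that day. Ptgs2 was at 2.36 CPM in culture 4, with the next highest at 0.494 CPM. Lgals3 was at 20.7 CPM in culture 5, the only day 7 culture of the second table, with the next at 0.506 CPM. Nrg1 was at 4.55 CPM in culture 3, with the next at 0.854 CPM. Of 21 sets of 5 cultures looked at (CPM, share of cells and members per cell), chance alone sets apart about 1 in 20. In shares of cells with a read none of the 3 stood apart. Sprr2b differed in the direction of its cycling contrast: on day 1 its mean was 288.8 CPM in cycling and 115.5 CPM in non-cycling cells, higher in 3 of 3 cultures, and on day 7 it was lower in 5 of 5. Without the cell with the most Sprr2b reads in each culture the day 1 means were 177 and 101 CPM, higher in 2 of 3 cultures, and on day 7 it was lower in 4 of 5. The difference between these days was not tested.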

How the results depend on the processing

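Of the comparisons by day, 6 members were called for day 7 against day 1. The count was 4 to 6 with a culture left out. In either table alone an arm had 1 culture that was assumed to vary like the others. Of these 6, Plaur, Ptgs2, Fscn1, Ahnak and Hbegf were not called in either table alone. DESeq2 called all 6 and also Fosl1 and Nrg1. For day 7 against day 3, 2 members were called, against 6 with DESeq2, 4 without a filter on low counts, 4 with cells thinned, 0 and 1 in the first and second table alone and 1 to 3 with a culture left out. For day 3 against day 1 DESeq2 called 1 member and 2 related genes where edgeR called 0. Of related genes 26 were called for day 7 against day 1, and the total was 2 and 4 in the first and second table alone and 13 to 24 with a culture left out. Against day 3 the total was 9, beside 23 by DESeq2, 0 in either table alone and 3 to 12 with a culture left out. For cycling cells on day 7 the count of 1 member became 3 with DESeq2, 0 with cells thinned or with at least 4 cycling genes, 2 with no culture block (replicate block), and 0 to 1 with a culture left out.

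The replicate block over days gave 7 members for day 7 against day 1 and 3 against day 3. Same-numbered cultures of different days had correlations of -0.010 to 0.061 over 9 pairs, and differently numbered ones of -0.085 to 0.072. All same-numbered pairs but that of culture 3 on days 3 and 7 were above 0, while most differently numbered ones were below 0. The ranges overlap and the labels do not state a pairing, so whether numbers pair cultures is not known. Members per cell moved from 2.19 to 1.71 on day 3 and from 0.769 to 0.509 on day 7 with cells thinned to 50000 reads, and to 1.08 on day 7 without thinning. Signs of uncalled cycling effects turned for Plaur (0.45) and Fosl1 (0.14) on day 3 with at least 2 cycling genes. On day 7 they turned for Sprr1a (-0.18 with no culture block, -1.18 to 4.51 with a culture left out), Fosl1 (-0.16 with at least 4 genes), Nrg1 (0.21 with no culture block) and Hbegf (-0.55 with at least 2 genes, -0.19 with at least 4, -0.040 thinned, -0.23 with no culture block, -0.40 to 0.58 with a culture left out). The cause was not tested. Leaving out the cell with the most reads, and taking non-cycling cells alone with each culture left out, were chosen after seeing the data.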
